A study of Mus musculus with 15 samples.

Results

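The genes described here are 28 genes of sterol and fatty acid synthesis. They were chosen by name from the known pathway and found by their symbol in both count tables, where they are 28 of 21662 genes. RNA-seq counts per gene were available for 15 samples of mouse embryonic stem cells (ESC) from 2 experiments, which asked whether the loss of Hmga1, an abundant chromatin protein that binds AT-rich DNA through AT-hooks, changes gene expression. The KO experiment has 9 samples: 3 of wild type (WT, letters a, b and c) and 2 each (a and b) of Hmga1 KO and of the Hmga1 and Hmga2 add-backs. The other 6 samples make up the full-deletion experiment, 3 of WT and 3 of a line without the Hmga1 coding sequence. The ESC are of mixed 129Sv and C57Bl/6 background, carry the BirA biotin ligase and were grown in serum with LIF, on feeder cells or on gelatine. Hmga1 KO is 1 clone with a CRISPR frameshift at a splice junction of the gene, and both add-back lines are KO cells in which Cre placed a biotin-tagged cDNA of Hmga1 or of Hmga2 under the CAG promoter at a single genomic site. The full deletion is also 1 clone, made in the same way with guides added in both UTRs, so every genotype stands for 1 cell line. Samples of a genotype came from cultures harvested on different days, and p-values therefore measure the spread between cultures of 1 line. In the KO experiment the letters stand for batches, which are groups of samples with the same day of library preparation and the same flow cell. WT c is alone in batch c.

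Cells make cholesterol from acetyl-CoA through the mevalonate branch, which ends in farnesyl diphosphate, and through the later steps from squalene to cholesterol. Both branches, together with fatty acid synthesis and desaturation, are controlled by the SREBP transcription factors, which are held in the endoplasmic reticulum by Insig proteins when sterols are plentiful and are released and cut when sterols are scarce. SREBPs bind sterol regulatory elements near the start of their target genes, often beside a CCAAT box that binds NF-Y, and serum in the medium supplies cholesterol that lowers their activity.

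The genes fall into 5 groups by role. The mevalonate branch is given by Acat2, Hmgcs1, Mvk, Pmvk, Mvd, Idi1 and Fdps. The steps from squalene to cholesterol are given by Fdft1, Sqle, Lss, Cyp51, Tm7sf2, Nsdhl, Hsd17b7, Ebp and Dhcr7. Control and transport are given by Srebf1 and Srebf2, which encode the SREBPs, by Insig1 and by Stard4, a sterol carrier. Acly, Acaca, Fasn and Elovl6 make and elongate saturated fatty acids, and Scd1, Scd2, Fads1 and Fads2 are desaturases. In the mm9 (NCBIM37) assembly Scd1 lies at chr19:44468941-44482199 (minus strand) close to its paralog Scd2 at chr19:44368166-44381354 (plus strand), and Fads1 (chr19:10257378-10271360) and Fads2 (chr19:10138654-10175993) are neighbours on the same chromosome. Reads that mapped to several places were assigned to 1 of them at random, so counts of genes with close copies can be shared between the copies.

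Promoter windows from RefSeq (GRCm38.p6), which run from 250 bases before to 50 bases after each start site, were found for 21 of the 28 genes. They were searched on both strands for TCACNCCAC (a form of the sterol regulatory element), CCAAT and CACGTG (an E-box), and 3 kinds of windows are shown because known regulators of the pathway bind such sites. TCACNCCAC was in the window of 1 of the 21 genes (4.76%), against 1.44% of the 27025 genes with a window. That gene is Hmgcs1, the enzyme that joins acetyl-CoA and acetoacetyl-CoA, and the match starts 137 bases before the start site. CCAAT was in the windows of 17 of the 21 genes (81.0%), against 41.1% of all genes, and CACGTG in those of 3 genes (14.3%), Hsd17b7, Dhcr7 and Insig1, against 8.09%. Below, the matched letters are in capitals, each sequence is 5′ to 3′ on the strand of its gene, and ATTGG is a CCAAT on the other strand. The windows lie at chr13:119690204-119690233 (Hmgcs1, plus strand), chr7:143830117-143830146 and chr7:143823223-143823252 (Dhcr7, plus strand, at a pair of alternative start sites), chr8:122443432-122443461 (Mvd, minus strand), chr13:8885549-8885578 (Idi1, plus strand) and chr5:114444207-114444236 (Mvk, plus strand).
Hmgcs1 (sterol regulatory element): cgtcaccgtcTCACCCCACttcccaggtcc
Dhcr7 (CCAAT): tcactgccttcaCCAATcacaggacgcagc
Mvd (CCAAT): ccggccagcgggCCAATcatatggcagcgc
Idi1 (CCAAT): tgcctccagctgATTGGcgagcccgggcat
Mvk (CCAAT): ttaatgtttgacCCAATctgtaaaggagcc
Dhcr7 (E-box): cgctgtgatgaaCACGTGgcaaaaagcagc

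A match of letters is a description of the window and does not show that a factor binds there. A window without a match says only that these letters are not in it.

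Depth ranged from 13465399 to 34952136 summed counts per sample in the KO experiment and from 14832310 to 21708492 in the full-deletion experiment. Batch a was sequenced deeper (30742898 to 34952136) than batch b (13465399 to 14585417). WT b of the full-deletion experiment stood apart, with a normalization factor of 0.752 against 0.986 to 1.12 in the other 5 samples, and with 8.78% of its counts in its 10 most abundant genes against 4.67 to 5.38%. Hmga1 was at 356, 310.3 and 354 CPM (counts scaled to a common library size with TMM) in its WT a, b and c and at 12.3, 10.9 and 12.1 CPM in the full deletion. In the KO experiment Hmga1 counts were still present in KO a (217 CPM) and KO b (96.0 CPM), against 464, 276 and 220.3 CPM in WT a, b and c. Both KO samples were below all 3 WT samples, KO a only just below WT c. The paper describes decay of the frameshifted transcript in KO and a remaining one that lacks exon 3. Since counts remain, they do not show by themselves that the protein is lost. In the Hmga1 add-back Hmga1 was at 184 and 123 CPM in a and b, below all 3 WT samples and within the range of KO. It was below KO in batch a and above it in batch b. The gene-level counts thus do not show an added Hmga1 transcript, while the paper reports, by Western blot, Hmga1 protein in this line at a level comparable to that of WT. In the Hmga2 add-back Hmga1 was at 138 and 101 CPM. Hmga2 was at 249 and 222 CPM in the Hmga2 add-back and at 12.8 to 23.8 CPM in the other 7 samples. All 9 markers of pluripotent cells had counts in every group, with summed levels of 4143 to 7484 CPM. The 10 markers of feeder fibroblasts summed to 4.04 to 15.1 CPM and the 7 of extraembryonic endoderm to 2.80 to 31.3 CPM, and 4 neural markers to 104 to 176 CPM.

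All 28 genes passed the filter on low counts (a mean of 10 or more) and were tested in both experiments. Together they held 0.224 to 0.421% of the counts of a sample. Compared per length, as CPM per kilobase of exon (RPKM), the levels in WT of the KO experiment spread from Tm7sf2, a sterol reductase, at 1.55 ± 0.27 RPKM (SD, n = 3), to Acly, the enzyme that makes cytosolic acetyl-CoA from citrate, at 99.0 ± 10.9 RPKM. Below Acly came Scd2 (90.2 ± 36.1 RPKM), Idi1 (63.0 ± 5.92 RPKM), Fasn (44.7 ± 8.06 RPKM) and Hmgcs1 (40.4 ± 7.88 RPKM). Acly and Scd2 did not differ beyond their spread, and neither did Fasn and Hmgcs1. At the low end were Mvk (4.25 ± 0.18 RPKM), Stard4 (5.16 ± 0.40 RPKM), Hsd17b7 (5.17 ± 1.55 RPKM) and Fads2 (5.88 ± 0.38 RPKM), of which the last 3 also overlapped. Of the 2 genes for SREBPs, Srebf2, which mainly drives sterol genes, was at 20.9 ± 3.66 RPKM and Srebf1, which mainly drives fatty acid genes, at 8.30 ± 1.41 RPKM.

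The ends of the order were the same in the other groups. Acly and Scd2 held the first and second places in every group, with Scd2 first in the 3 KO-derived lines of the KO experiment, and Tm7sf2 was last in all 6 groups. Other genes changed place, Acat2 from place 7 in WT of the KO experiment to places 16 and 17 in WT and full deletion of the other experiment, and Scd1 from place 16 to places 10 and 6. Between WT and full deletion of that experiment Hmgcs1 moved furthest, from place 4 to place 11, where its level was 23.4 ± 0.62 RPKM (n = 3). Replicates of the full deletion were the closest, with a median coefficient of variation over the 28 genes of 4.21%, against 11.7% in its WT and 17.4% in WT of the KO experiment. Its WT includes WT b, which stood apart, and WT a, b and c of the KO experiment come from different batches.

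**Figure D1:**
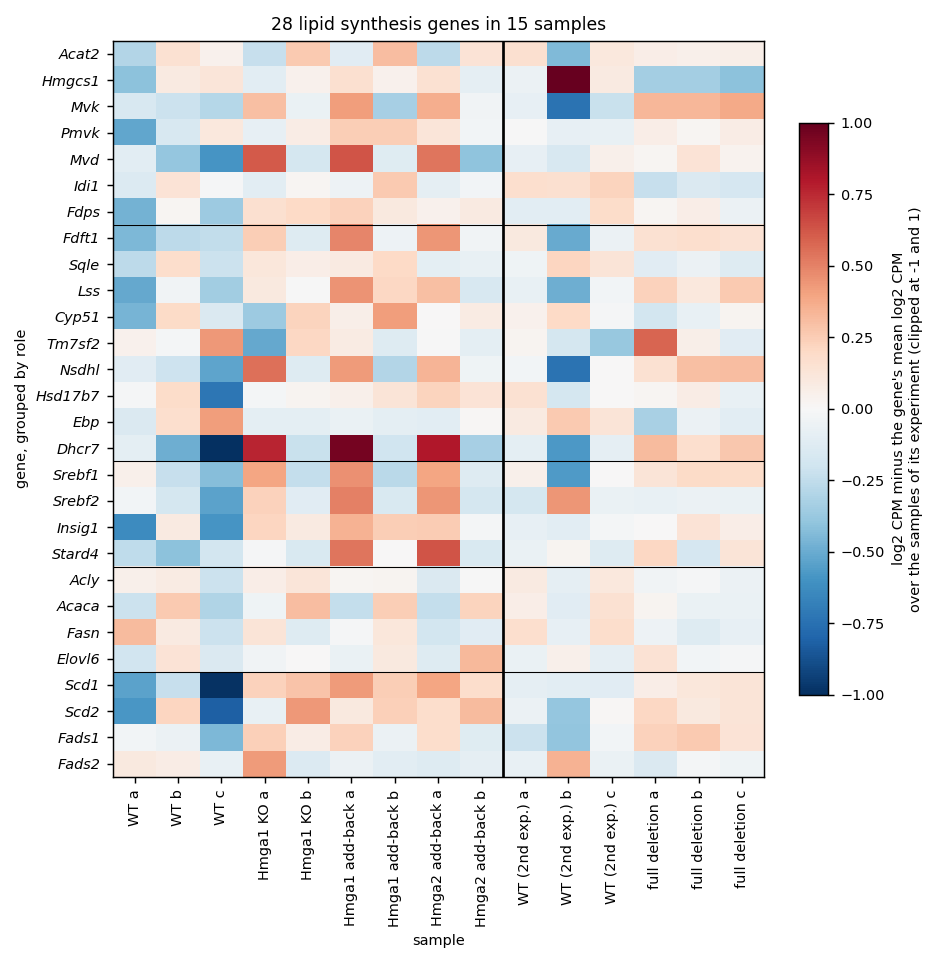
Level of each of the 28 genes (rows, grouped by role) in each of the 15 samples (columns), as log2 CPM minus the mean of the gene over the samples of its own experiment. The red cell of Hmgcs1 (526 CPM) marks WT b of the full-deletion experiment, and the blue cells in the column of WT c include Scd1 (65.7 CPM) and Dhcr7 (12.1 CPM).

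The levels in WT differed between the experiments. For 9 genes the 3 WT samples of the full-deletion experiment lay below the 3 of the KO experiment, for 4 they lay above, and for 15 the groups overlapped. The share over all genes was not counted, so these counts do not set the listed genes apart from other genes. Acat2 was at 68.4 and 28.9 CPM (means of 3) and Fads2, the delta-6 desaturase, at 21.8 and 40.9 CPM in the KO and the full-deletion experiment. These levels were scaled separately and the experiment cannot be told apart from the lines and days, so each mutant was compared with WT of its own experiment.

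The first question was whether the loss of Hmga1 changed these genes. In Hmga1 KO against WT none of the 28 passed the test. The count was 0 at a Benjamini-Hochberg adjusted p under 0.05 in edgeR's quasi-likelihood test with batch in the model (background 0.0647% of 13912 genes) and 0 under the study's rule of an adjusted p under 0.01 with at least a 2-fold change (background 0.0216%). The batch term absorbs WT c, which is alone in its batch, so that WT a and WT b carry the WT side of the fit. At an unadjusted p under 0.05 there were 5 of the 28 genes and 1747 of all genes. Limma-trend called 0 of the 28, and the Wald test of DESeq2 called 1, Scd1, against 1.43% of all genes. The fitted differences leaned upward, with a median log2 fold change of 0.16 over the 28 genes against -0.01 over all genes tested, and 23 of 28 above 0.

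Scd1, a delta-9 desaturase, had the largest difference. It was at 89.6, 111 and 65.7 CPM in WT a, b and c and at 152 and 158 CPM in KO a and b. Both KO samples were above all 3 WT samples. The log2 fold change was 0.63 ± 0.14 (SE), with an adjusted p of 0.155 in edgeR. Dhcr7, the reductase of the last step to cholesterol, came next with 25.6, 19.5 and 12.1 CPM in WT a, b and c, against 46.3 and 23.4 CPM in KO a and b. Here the groups overlapped, and the KO sample of batch b was below WT a. Its log2 fold change was 0.56 ± 0.20, with an adjusted p of 0.319 in edgeR.

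By role, the median log2 fold change in KO was 0.31 over the 7 genes of the mevalonate branch, 0.13 over the 9 genes from squalene to cholesterol, 0.21 over the 4 genes of control and transport, 0.02 over the 4 genes of saturated fatty acid synthesis and 0.27 over the 4 desaturases. The negative values were those of Idi1 (-0.04), Tm7sf2 (-0.17), Hsd17b7, Ebp and Fasn (-0.20). For 7 genes both KO samples lay above all WT samples, and for none did they lie below. This is 25% of the genes, and the groups did not overlap for 23.5% of all genes tested. Those 7 were Mvk, Fdps, Fdft1, Lss, Stard4, Scd1 and Fads1.

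Summed levels of several cell markers also differed between these groups. The 10 feeder markers summed to 4.89 to 8.69 CPM in WT and 8.92 to 9.42 CPM in KO. Thy1 and Acta2 held most of these counts, with means of 173 and 30.4 over the KO experiment. At 0 were 3, 5 and 1 markers in WT a, b and c, and 4 in each KO sample (Col3a1, Dcn, Lum and Postn). Of these, Dcn, Lum and Postn had at most 4 counts in any sample. The 7 endoderm markers summed to 14.3 to 31.3 CPM in WT and 4.46 to 12.3 CPM in KO, where only Afp was at 0. The 4 neural markers summed to 148 to 176 CPM in WT and 118 to 168 CPM in KO, and the 9 pluripotency markers to 4841 to 5402 CPM and 5622 to 5781 CPM. Their part in the values of the lipid genes was not tested. In bulk RNA fewer cells of a type and less RNA per cell cannot be told apart.

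The add-back lines share their WT samples with the KO comparison, and their values are given side by side with it. In the Hmga1 add-back against WT, 0 of 28 genes passed an adjusted p under 0.05 (background 0.0431%) or the stricter rule (background 0.0144%) in edgeR's quasi-likelihood test. In the Hmga2 add-back against WT the count was also 0 under both rules (background 0.165% and 0.0647%). An unadjusted p under 0.05 was reached by 10 and 7 of the 28 genes, and by 1844 and 2352 of all genes. In both comparisons limma-trend called 0 and the Wald test of DESeq2 called Scd1 alone, against 1.44% and 2.36% of all genes.

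Scd1 again had the largest difference in both. It was at 175 and 154 CPM (a and b) with the Hmga1 cDNA and at 171 and 147 CPM with the Hmga2 cDNA, so that all 4 samples lay above the 3 WT samples. The log2 fold changes were 0.72 ± 0.14 and 0.67 ± 0.14, with adjusted p-values of 0.112 and 0.112 in edgeR. Dhcr7 was second in the Hmga1 add-back, at 53.1 and 23.8 CPM in a and b (log2 fold change 0.68 ± 0.20, adjusted p = 0.226 in edgeR). Its batch b sample lay within the WT range. Stard4, which moves cholesterol between membranes, was second in the Hmga2 add-back, at 32.6 and 18.9 CPM in a and b against 17.7, 15.9 and 18.5 CPM in WT a, b and c (log2 fold change 0.59 ± 0.19, adjusted p = 0.200 in edgeR). Both add-back samples of Stard4 lay above WT, the one of batch b only just.

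Over the 28 genes the medians were 0.24 with the Hmga1 cDNA and 0.21 with that of Hmga2, and those over all genes 0.00 and -0.00. The groups did not overlap for 7 genes in each comparison (25%), against 17.8% and 26.8% of all genes. All 7 were above WT in the Hmga1 add-back. In the Hmga2 add-back 6 were above and 1, Fads2, was below, at 19.5 and 19.99 CPM against 22.8, 22.5 and 20.2 CPM in WT a, b and c.

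Markers of other cells also differed between the add-backs and WT. The feeder markers summed to 8.69 to 14.3 CPM in the Hmga1 add-back and 10.2 to 15.1 CPM in that of Hmga2, against 4.89 to 8.69 CPM in WT. Dcn, Lum and Postn, with at most 4 counts in any sample, were at 0 in both add-backs. The neural markers summed to 125 to 126 CPM and 104 to 135 CPM, against 148 to 176 CPM. The endoderm markers, all 7 with a count, summed to 7.66 to 21.4 CPM in the Hmga1 add-back, which overlapped with the 14.3 to 31.3 CPM of WT, and to 6.26 to 9.92 CPM in the Hmga2 add-back, which did not. The pluripotency markers overlapped with WT, at 5257 to 5657 CPM and 5025 to 5992 CPM. Their part in the differences of the lipid genes was not tested.

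The second question was whether putting Hmga1 or Hmga2 back changed the genes relative to KO. With 2 samples on each side, 0 of 28 genes passed an adjusted p under 0.05 in edgeR's quasi-likelihood test in the Hmga1 add-back against KO (background 0% under both rules) and in the Hmga2 add-back against KO (background 0.0144%, and 0.00719% under the stricter rule). No member of the list had an unadjusted p under 0.05 in either comparison, where 390 and 708 of all genes did, and limma-trend and DESeq2 also called 0. The medians were 0.07 and 0.04 on the log2 scale. The groups did not overlap for 8 of 28 genes (28.6%) in the Hmga1 add-back, 7 above and 1 below KO, against 14.8% of all genes. In the Hmga2 add-back they did not overlap for 4 genes (14.3%), 1 above and 3 below KO, against 20.4% of all genes.

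Stard4 had the largest difference in both, with 20.9 and 18.9 CPM in KO a and b, 30.5 and 21.1 CPM with the Hmga1 cDNA, and 32.6 and 18.9 CPM with that of Hmga2. The log2 fold changes were 0.36 ± 0.18 and 0.35 ± 0.18, with an adjusted p of 0.877 in edgeR for the latter and a higher one for the former. The lines stood apart in batch a, and the 3 samples of batch b were at 18.9 to 21.1 CPM. Cyp51, the lanosterol demethylase, was second in the Hmga1 add-back (99.0 and 127 CPM in a and b, against 73.7 and 111 CPM in KO, log2 fold change 0.31 ± 0.15). Fads2 was second in the Hmga2 add-back (19.5 and 19.99 CPM, against 28.7 and 19.4 CPM in KO, log2 fold change -0.28 ± 0.18). Both overlapped with KO.

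**Figure D2:**
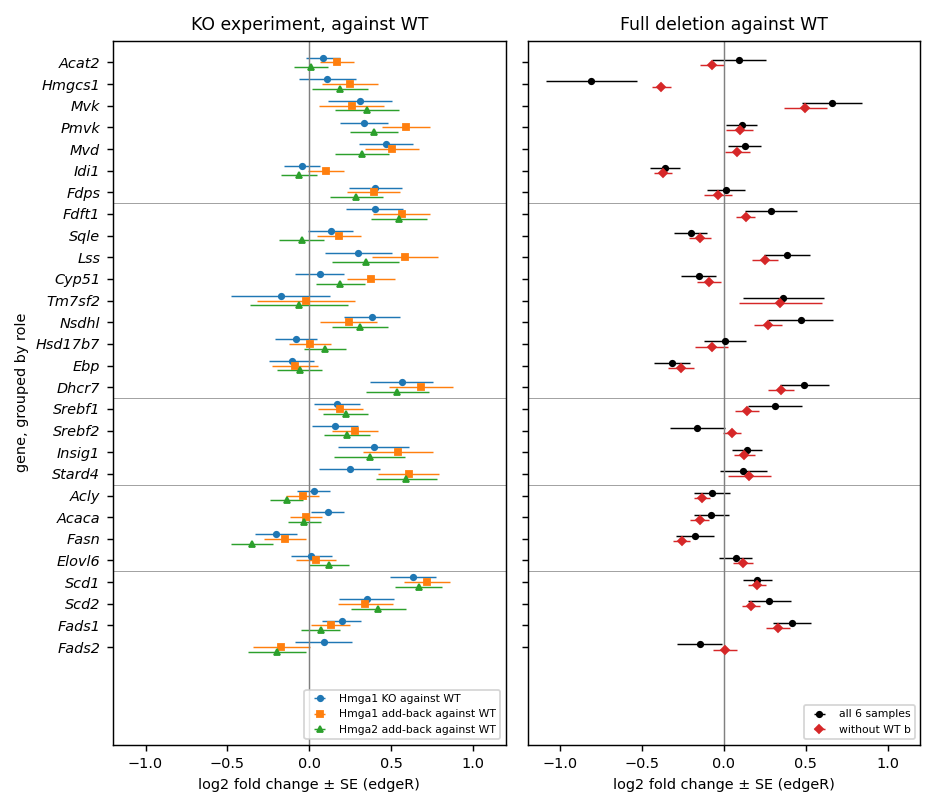
Fitted log2 fold change with its standard error (edgeR) for each of the 28 genes, at the left for Hmga1 KO and both add-backs (Hmga1 and Hmga2) against WT, at the right for the full deletion against its WT with all 6 samples (black) and without WT b (red). Scd1 has the highest value in all 3 comparisons at the left (0.63 to 0.72), and Hmgcs1 moves at the right from -0.81 to -0.38 when WT b is left out.

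The differences from WT were larger in batch a than in batch b, where each line has 1 sample per batch. In batch a the median log2 difference from WT over the 28 genes was 0.32 in KO and 0.53 and 0.46 in the add-backs of Hmga1 and Hmga2, with 25, 24 and 23 of 28 genes above 0. In batch b it was 0.06, 0.02 and -0.02, with 18, 16 and 12 genes above 0. The medians over all genes tested lay between -0.01 and 0.01 in all 6 differences. WT itself differed between the batches in these genes, with a median of 0.23 for batch b minus batch a, against -0.02 in KO and -0.11 and -0.12 in the add-backs of Hmga1 and Hmga2. The 3 lines of a batch share its WT sample.

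**Figure D3:**
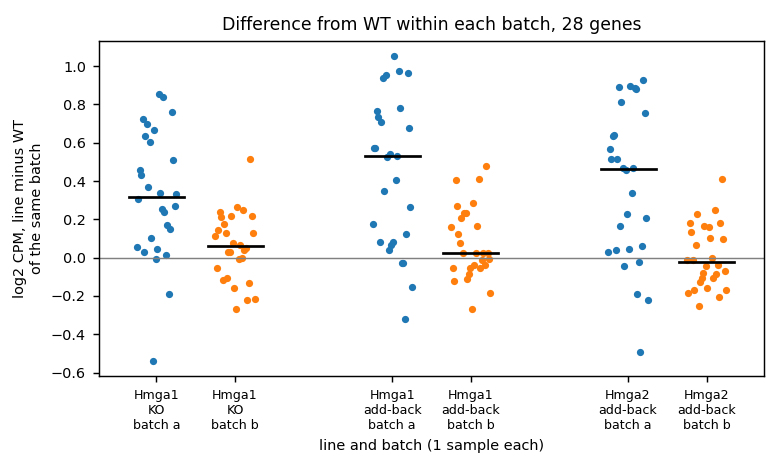
Log2 CPM of each of the 28 genes in a line minus that in WT of the same batch, for 3 lines in batch a (blue) and batch b (orange), with 1 sample for each line and batch and a black bar at the median. The medians are 0.32, 0.53 and 0.46 in batch a and 0.06, 0.02 and -0.02 in batch b.

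The calls depended on which WT sample was kept. Without WT b, WT a is the 1 WT sample that shares a batch with the other lines. The WT side of the fit is then 1 sample, the spread comes from the other 3 lines alone, and WT a is assumed to vary like them. In that fit 7 of 28 genes (25%) were higher in KO at an adjusted p under 0.05 in edgeR and 0 were lower, against 5.25% of all genes called and 2.85% called higher. These were Dhcr7 (log2 fold change 0.90), Insig1 (0.86), Scd1 (0.85), Fdft1 (0.74), Mvd (0.74), Lss (0.69) and Fdps (0.66). In the Hmga1 add-back 8 genes were higher and 0 lower (background 5.75% called, 3.22% higher), namely the same 7 and Pmvk. In the Hmga2 add-back 7 were higher and 0 lower (background 9.36% called, 5.15% higher), with Scd2 but without Fdps. Without WT a, so that WT b was the reference, 0 genes were called in all 3 comparisons and the medians were 0.03, 0.07 and 0.05. The log2 fold changes of Insig1 and Lss were then -0.01 and -0.05 in KO and -0.04 and -0.01 in the Hmga2 add-back, below 0 where they had been called higher without WT b.

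The WT samples of 3 of these genes differed in how they lay. Insig1, which retains the SREBP complex when sterols are plentiful, was at 56.0, 92.0 and 57.4 CPM in WT a, b and c, and at 85.4 to 110.2 CPM in the 6 samples of the other lines. Fdft1, squalene synthase, was at 89.1, 102 and 103 CPM in WT a, b and c, at 145 and 111 CPM in KO, at 170.4 and 117 CPM with the Hmga1 cDNA and at 165 and 119 CPM with that of Hmga2. For Insig1 WT b lay inside the range of the other lines and WT a and c far below it, whereas for Fdft1 all 3 WT samples were below all others and the distance was larger in batch a. Lss, which closes the sterol rings, was at 34.9, 48.6 and 39.1 CPM in WT a, b and c and at 44.6 to 67.7 CPM in the other lines.

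The batches themselves differed. In batch b against batch a, over WT and the 3 other lines together, 10 of 28 genes (35.7%) passed an adjusted p under 0.05 in edgeR's quasi-likelihood test, and so did 35.6% of all genes. Of the 10, 4 were higher and 6 lower in batch b, where 18.6% of all genes were higher and 17.1% lower. No gene of the 28 passed the stricter rule, which 2.34% of all genes did. The share of the 28 genes that changed was thus that of the genes at large, and it goes with a difference in depth from which the batch cannot be told apart.

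Among the genes that fell from batch a to batch b were 3 of the 4 of control and transport. Srebf1 was at 42.2, 53.3, 55.9 and 53.4 CPM in WT, KO and the add-backs of Hmga1 and Hmga2 of batch a and at 34.6, 34.4, 33.7 and 37.2 CPM in batch b, in the same order (log2 fold change -0.54 ± 0.10, adjusted p = 0.00519 in edgeR). Srebf2 was at 134, 160.2, 194 and 185 CPM in batch a and at 121, 127, 123 and 121 CPM in batch b (-0.44 ± 0.10, adjusted p = 0.0121). The batches did not overlap for either gene. Stard4 was at 17.7, 20.9, 30.5 and 32.6 CPM in batch a and at 15.9, 18.9, 21.1 and 18.9 CPM in batch b (-0.41 ± 0.13, adjusted p = 0.0420). Here the batches overlapped, and in each line batch b was lower.

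In the sterol branches, Dhcr7 fell most. It was at 25.6, 46.3, 53.1 and 47.6 CPM in batch a and at 19.5, 23.4, 23.8 and 21.7 CPM in batch b, in the same order of lines (log2 fold change -0.92 ± 0.14, adjusted p = 0.00277 in edgeR). Mvd, the decarboxylase that yields isopentenyl diphosphate, was at 38.4, 63.5, 64.1 and 59.9 CPM in batch a and at 31.6, 36.7, 38.1 and 31.4 CPM in batch b (-0.69 ± 0.12, adjusted p = 0.00398). For both genes all batch b samples lay below all batch a samples. Nsdhl, an enzyme of sterol demethylation, was at 28.6, 45.4, 41.6 and 39.2 CPM and at 26.8, 28.3, 25.3 and 29.98 CPM (-0.47 ± 0.12, adjusted p = 0.0190). WT differed least for Nsdhl, and the batches overlapped.

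The 4 genes that rose came from 4 groups by role. Acaca, the acetyl-CoA carboxylase of fatty acid synthesis, was at 122, 138, 120.1 and 120.5 CPM in batch a and at 169.7, 176, 168 and 166 CPM in batch b (log2 fold change 0.44 ± 0.07, adjusted p = 0.00345 in edgeR). Acat2, which joins 2 acetyl-CoA, was at 56.8, 59.1, 64.1 and 58.1 CPM and at 77.0, 83.2, 86.2 and 76.4 CPM (0.44 ± 0.07, adjusted p = 0.00391). For both genes the batches were well apart and the lines close together. Cyp51 was at 68.7, 73.7, 99.0 and 95.1 CPM and at 108, 111, 127 and 100.4 CPM (0.42 ± 0.11, adjusted p = 0.0176). Scd2 was at 411, 585, 657 and 694 CPM and at 716, 832, 727 and 767 CPM (0.40 ± 0.12, adjusted p = 0.0323). For Cyp51 and Scd2 the batches also stood apart, and in the add-back lines by less than in WT.

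Of these 10, Acaca, Acat2, Dhcr7, Mvd and Srebf1 were called in all 14 alternatives, Cyp51 in 11, Srebf2 in 10, Scd2 in 9, and Nsdhl and Stard4 in 8. Other genes of the pathway, from lists that hold none of the 28, moved as well. The share of all genes called was 35.6%, with 18.6% higher and 17.1% lower in batch b. Among 14 further sterol genes 2 rose (Ggps1 and Npc1) and 5 fell at an adjusted p under 0.05 in edgeR (50% called). Among 10 further genes of fatty acid synthesis 1 rose and 2 fell (30%). Of 7 tested genes of fatty acid oxidation 1 rose and 2 fell (42.9%), and of 6 genes of LXR and its targets 1 fell (16.7%). LXR is the nuclear receptor that senses oxysterols. In the 5 comparisons of lines no gene of these 4 lists passed an adjusted p under 0.05.

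**Figure D4:**
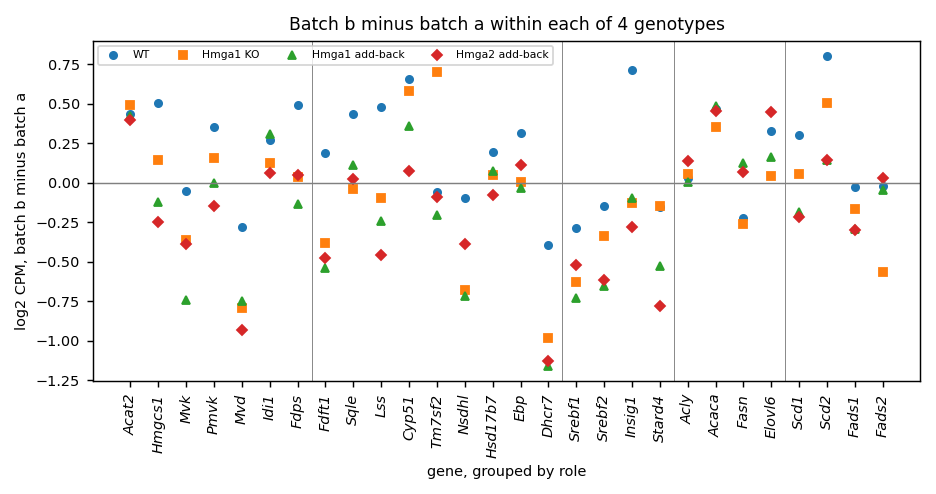
Log2 CPM in batch b minus that in batch a for each of the 28 genes (grouped by role), within WT, Hmga1 KO and both add-backs (1 sample per line and batch). All 4 points of Srebf1, Srebf2, Dhcr7 and Mvd lie below 0, and all 4 points of Acat2 and Acaca lie above it.

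In the full deletion none of the 28 genes passed either. The count was 0 at an adjusted p under 0.05 in edgeR's quasi-likelihood test (background 8.25% of 13098 genes) and 0 under the stricter rule (background 0.0687%). The background itself rested on the samples kept, since 3 genes of all tested were called without any 1 of the deletion samples, 4 without WT c and 9.4% without WT a, and 0 of the 28 each time. An unadjusted p under 0.05 was reached by 8 of the 28 genes and by 4843 of all genes. Limma-trend called 1 of the 28 (Idi1), against 7.76% of all genes. The Wald test of DESeq2 called 5 (17.9%), namely Hmgcs1, Mvk, Idi1, Dhcr7 and Fads1, against 24.7% of all genes. The median log2 fold change was 0.10 over the 28 genes and 0.04 over all genes tested. The groups did not overlap for 15 genes (53.6%), 11 above and 4 below WT, against 51.3% of all genes.

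Hmgcs1 and Mvk had the largest differences, in opposite directions. Hmgcs1 was at 245, 526 and 272 CPM in WT a, b and c and at 201, 201 and 192 CPM in the full deletion (log2 fold change -0.81 ± 0.28, adjusted p = 0.0873 in edgeR). All 3 deletion samples were below all 3 WT samples, and WT b was 2.04 times the mean of WT a and c. Mvk, mevalonate kinase, was at 6.88, 4.35 and 6.21 CPM in WT and at 9.13, 9.15 and 9.44 CPM in the full deletion (0.66 ± 0.18, adjusted p = 0.0601). Again the groups were apart, and WT b was the lowest sample. Idi1, the isomerase that follows Mvd, came closest to the threshold, at 134, 134 and 139 CPM in WT and 102, 108 and 107 CPM in the full deletion (-0.36 ± 0.09, adjusted p = 0.0506). For Idi1 the 3 WT samples were close to each other.

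**Figure D5:**
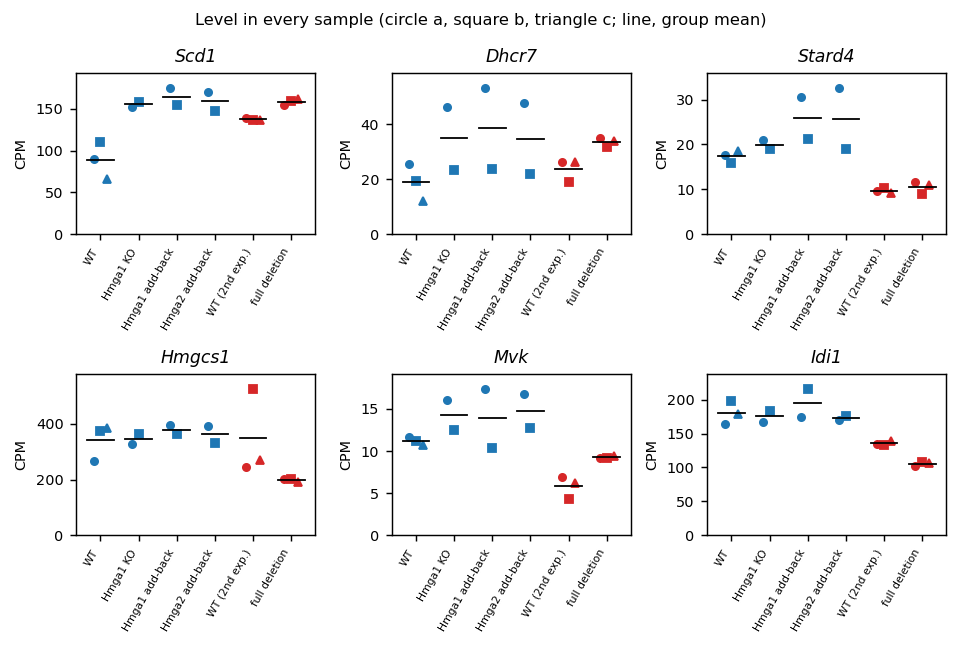
CPM of 6 of the genes in every sample (circle, letter a; square, b; triangle, c), with a black line at the mean of each group, for the KO experiment (blue) and the full-deletion experiment (red). Scd1 shows the 6 KO-derived samples of the first experiment (147 to 175 CPM) above WT (65.7 to 111 CPM), and Hmgcs1 shows WT b of the second (526 CPM) far above the other 5 samples (192 to 272 CPM).

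WT b was off in many of these genes. It was the lowest of the 3 WT samples for 18 of the 28 genes, the highest for 8 and in between for 2, and its ratio to the mean of WT a and c ran from 0.603 (Nsdhl) to 2.04 (Hmgcs1), where the ratio of WT a to WT c ran from 0.820 to 1.33. Srebf2 was at 157, 239.7 and 169 CPM in WT a, b and c and at 167 to 169 CPM in the full deletion, so WT b alone lay apart. Without WT b, 13 of the 28 genes (46.4%) passed an adjusted p under 0.05 in edgeR's quasi-likelihood test, 7 higher and 6 lower, and so did 42.5% of all genes, 20.5% higher and 22% lower. The share of the 28 genes that changed was again close to that of all genes.

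By role, the calls without WT b were as follows. Of the desaturases 3 of 4 were higher, Fads1 (log2 fold change 0.33 ± 0.07, adjusted p = 0.00151 in edgeR), Scd1 (0.20 ± 0.05, adjusted p = 0.00592) and Scd2 (0.17 ± 0.05, adjusted p = 0.0191). Fads1, the delta-5 desaturase, was at 41.5 and 47.1 CPM in WT a and c and at 56.4, 57.7 and 52.9 CPM in the full deletion, and Scd1 at 139 and 136 CPM against 154, 159 and 161 CPM. For Scd2 the values were 315 and 330.3 CPM in WT and 378, 349.9 and 357 CPM in the full deletion. In all 3 the groups were apart, by less than 1.5-fold.

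Of the genes of saturated fatty acid synthesis 3 of 4 were lower without WT b. These were Fasn, fatty acid synthase (-0.26 ± 0.05, adjusted p = 0.000434 in edgeR), Acaca (-0.15 ± 0.06, adjusted p = 0.0490) and Acly (-0.13 ± 0.05, adjusted p = 0.0349). With scaling by summed counts over all 6 samples, WT b included, the 3 log2 fold changes were positive (0.09, 0.19 and 0.20). In that fit the median over all genes was 0.32, and all 3 genes lay below it. Fasn was at 416 and 419.6 CPM in WT a and c and at 358, 339 and 351 CPM in the full deletion, and WT b, at 351 CPM, lay among the deletion samples. Acly was at 493 and 501 CPM against 454, 460.1 and 445 CPM, and Acaca at 125 and 132 CPM against 121, 113 and 113 CPM. WT b was the lowest WT sample for both genes, at 0.879 (Acly) and 0.858 (Acaca) of the mean of WT a and c.

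The sterol branches were split. In the mevalonate branch Hmgcs1 (-0.38 ± 0.06, adjusted p = 2.76e-05 in edgeR) and Idi1 (-0.37 ± 0.06, adjusted p = 3.66e-05) were lower and Mvk (0.50 ± 0.13, adjusted p = 0.00564) was higher. From squalene to cholesterol Dhcr7 (0.35 ± 0.08, adjusted p = 0.00188), Nsdhl (0.27 ± 0.09, adjusted p = 0.0181) and Lss (0.25 ± 0.08, adjusted p = 0.0148) were higher and Ebp, the sterol isomerase, was lower (-0.26 ± 0.08, adjusted p = 0.0105). Dhcr7 was at 26.2 CPM in both WT a and c and at 34.9, 31.5 and 33.8 CPM in the full deletion. Ebp was at 48.9 and 50.2 CPM against 36.6, 44.1 and 42.6 CPM. None of the 4 genes of control and transport was called, and Insig1 was at 67.6 and 70.7 CPM against 72.0, 79.0 and 75.0 CPM.

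Of the further genes of lipid metabolism, 6 changed in the full deletion with all 6 samples, and each of them rose. In fatty acid synthesis these were Acss2, a cytosolic acetyl-CoA synthetase (log2 fold change 1.19 ± 0.25, adjusted p = 0.0383 in edgeR), Mlxipl, the carbohydrate-responsive factor ChREBP (0.99 ± 0.23, adjusted p = 0.0456), and Acacb (0.77 ± 0.15, adjusted p = 0.0349), out of 10 genes. Of 7 tested genes of fatty acid oxidation Cpt1a (0.50) and Cpt2 (0.57) rose, of 5 tested genes of LXR and its targets Lpcat3 (0.71) rose, and of 14 further sterol genes 0 changed (median 0.18, 5 at an unadjusted p under 0.05). These calls were made with the background of 8.25%, which fell to 3 or 4 genes in all without WT c or any 1 of the deletion samples. Cell markers also moved here. The feeder markers summed to 4.04 to 6.84 CPM in WT and 7.58 to 8.28 CPM in the full deletion, with 5 and 6 of 10 detected in at least 1 sample. The endoderm markers summed to 2.80 to 3.19 CPM and 3.50 to 5.90 CPM. The pluripotency markers summed to 4657, 7484 and 4460 CPM in WT a, b and c, so the high value is that of WT b alone, and to 4143 to 4244 CPM in the full deletion. The summed level of the 4 neural markers stood apart as well, at 166 to 172 CPM in WT and 139 CPM in all 3 deletion samples. Tubb3 held most of these counts (mean 2101, against 229 to 450 for the others). With all 6 samples the 4 log2 fold changes were -0.44 to -0.04. Without WT b they were -0.39 for Tubb3 and -0.13 for Nes, but 0.17 for Pax6 and 0.15 for Sox1. Their part in these values was not tested.

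Last, the KO effect and the full-deletion effect were compared as an interaction in 1 fit of all 15 samples. No gene of the 28 differed between them at an adjusted p under 0.05 in edgeR's quasi-likelihood test (background 0.307% of 13671 genes) or under the stricter rule (background 0.0951%). At an unadjusted p under 0.05 there were 3 of the 28 and 2512 of all genes, and limma-trend and DESeq2 also called 0. The 2 largest differences were those of Hmgcs1, where the KO effect exceeded the full-deletion effect by 0.94 ± 0.39 on the log2 scale (adjusted p = 0.255 in edgeR), and of Tm7sf2, where it was lower (-0.53 ± 0.40, adjusted p = 0.459). Hmgcs1 was at 265, 376 and 385 CPM in WT of the KO experiment and at 328 and 363 CPM in KO, which lay within the WT range. Tm7sf2, the gene with the fewest counts, was at 3.79, 3.65 and 4.98 CPM in WT and 2.58 and 4.25 CPM in KO, and at 2.75, 2.39 and 2.07 CPM and 4.05, 2.81 and 2.50 CPM in the full-deletion experiment. The value of Hmgcs1 rests in part on WT b, which was 526 CPM.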

How the data were processed

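RNA-seq was done on rRNA-depleted total RNA with a strand-specific library protocol (ScriptSeq v2) and single-end reads. The authors cut bases off the 5′ end of the reads, mapped them to mm9 (QuasR, bowtie; for a read with several hits, 1 was drawn at random) and deposited raw counts per UCSC known gene, counted on the strand of the gene, with the exonic length of each gene. Here, genes whose counts averaged 10 or more entered edgeR's quasi-likelihood test (version 4.0.16, R 4.3.3, TMM, Benjamini-Hochberg over all genes tested), with batch as a term in the KO experiment and without it in the full-deletion experiment. CPM used TMM-scaled totals within each experiment, and RPKM divided CPM by the deposited length. The scripts were tested on simulated counts. The 28 genes and all gene lists were chosen with earlier results of these data known, so their counts were read against the background of all genes. Named genes are all 28 members, with values in every sample for those called and, where none was, for the 2 with the largest fold change, and at most 4 per further list. Of the further sterol list, some genes enter the counts and their own values are not reported here. Values of Insig1, Lss, Fdft1, Idi1 and Srebf2 beyond that rule were chosen after they were seen.

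Depth was 13465399 to 34952136 counts per sample. The alternatives were scaling by size factors (DESeq2 1.42.0) or by summed counts, no filter, the Wald test of DESeq2, limma-trend (limma 3.58.1, prior count 2), each sample left out, the batch term removed, only the groups compared, and the letter as a block. In the KO experiment the letters pair the samples, since the methods of the study give batches; the log2 difference of WT b from WT a correlated across genes with that of KO (0.43) and of the add-backs of Hmga1 (0.32) and Hmga2 (0.34). Figures were drawn with matplotlib 3.10.9.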

Additional observations from a re-analysis of the deposited data

How the results depend on the processing

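In the comparisons of lines, with 0 of 28 genes at an adjusted p under 0.05 in edgeR, the count moved to 1 (Scd1) with the Wald test of DESeq2 in KO and both add-backs against WT, and to 1 (Scd1) in the Hmga2 add-back against WT when only the groups compared were fitted. The Wald test called 1.43% of all genes in KO and 1.44% and 2.36% in the add-backs of Hmga1 and Hmga2. The fit of only the Hmga2 add-back and WT called 2.52%. Leaving out 1 sample at a time gave 0 to 7, 0 to 8 and 0 to 7, with all calls arising without WT b. Both add-back comparisons with KO stayed at 0 under every alternative run. In the full deletion DESeq2 size factors gave 1 (Idi1), limma-trend 1 (Idi1), the Wald test 5 and leaving out 1 sample 0 to 13, the 13 without WT b. The shares of all genes called were 7.85% (size factors), 7.76% (limma-trend), 24.7% (Wald test) and 42.5% (without WT b). For batch b against batch a the count of 10 ranged from 6 (without KO a or KO b) to 12 (without WT b), was 7 without any 1 of the 4 add-back samples, and under the stricter rule, where it was 0, it ranged from 0 to 1 and was 1 with summed counts. The cause of these moves was not tested. Summed counts gave 2 higher and 9 lower genes in place of 4 and 6 between the batches, and moved the median of all genes in the full deletion from 0.04 to 0.32 and that of the 28 genes from 0.10 to 0.38, so both medians moved together. With no replicate block (batch term removed) 0 of 28 genes were called in the 5 comparisons of lines, and with the replicate block in the full-deletion experiment, where same-lettered samples did not deviate together (correlations 0.06, 0.07 and -0.05) and share only a letter, the count was also 0. None of the 10 genes called between the batches turned its direction under the alternatives. Of those called only without WT b, Fasn, Acaca and Acly in the full deletion turned positive with summed counts (0.09, 0.19 and 0.20), below the median of all genes (0.32). Insig1 and Lss, also called only without WT b, turned without WT a to -0.01 and -0.05 in KO and, for the add-back of Hmga2, to -0.04 and -0.01. Genes called in the full deletion numbered 1080 of 13098 with all 6 samples and 3 to 5592 with 1 left out. Depth limits Tm7sf2 most, with 39 counts in its shallowest sample.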
